A study of Homo sapiens with 66 samples.

Results

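The 9 genes described here encode the core of mTOR signalling: the kinase MTOR, the subunits RPTOR, RICTOR and MLST8 of its complexes, the inhibitory partners DEPTOR and AKT1S1, and the upstream switch made of TSC1, TSC2 and RHEB. They were taken by gene symbol from 57992 genes counted in each of 66 RNA-seq libraries, and all 9 were found once. The libraries came from 11 established human cell lines of acute myeloid leukemia (F36P, HL60, KASUMI1, MOLM13, MONOMAC6, MV411, NB4, NOMO1, OCIAML2, OCIAML3 and THP1). Each line was either left untreated, in medium alone, or given etoposide, a topoisomerase II poison that leaves DNA double-strand breaks, for 24 h, with 3 libraries in each group and cells of 3 wells pooled for each. The drug was used at the IC50 of each line, so the concentration differed between lines, and a difference in response between lines cannot be told apart from a difference in concentration. The study discarded the etoposide libraries of OCIAML2 after quality control of the raw reads, and that line is described apart.

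mTOR is a large serine/threonine kinase that works in a pair of complexes. With RPTOR (raptor), MLST8, AKT1S1 (PRAS40) and DEPTOR it forms mTORC1, which drives protein, lipid and nucleotide synthesis and restrains autophagy when nutrients and growth factors are at hand. With RICTOR, MLST8 and DEPTOR it forms mTORC2, which phosphorylates AKT and SGK1. The small GTPase RHEB switches mTORC1 on at the lysosome, and the TSC1-TSC2 complex switches RHEB off. Genotoxic stress is known to restrain mTORC1 through p53 targets such as the sestrins. These activities are set by proteins and phosphorylation, whereas the values below are mRNA levels.

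Between 17997404 and 24101670 reads were counted on genes per library (median 20241014). The share of reads on mitochondrial genes was higher with etoposide in 10 of 11 lines, by up to 1.73 percentage points in MOLM13, and its part in the results was not tested. CDKN1A, a direct p53 target that marks the response to DNA damage, rose in all 11 lines, by 1.86 to 5.46 on the log2 scale in 10 of them and by 0.73 in OCIAML2. PTPRC, SPI1 and CD33, markers of blood and myeloid cells, were present in every untreated line (lowest 32.5, 107 and 66.5 CPM, read counts scaled to a common library size). F36P stood apart, with GATA1 and KLF1 of the erythroid lineage at 253 and 231 CPM, HBG1 at 15.1 CPM, and MPO and CEBPA at 0.977 and 0.552 CPM. LYZ ranged from 2.65 CPM in HL60 to 5013 CPM in OCIAML2. The lymphoid markers CD3E, CD79A and MS4A1 reached at most 6.68 CPM.

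Without the drug, the 9 genes differed in reads per length, a measure not corrected here for GC or for the use of other transcripts. Per kilobase of the canonical transcript, the median level over the 11 lines was highest for MLST8, at 44.8 CPM per kb, followed by RHEB at 29.1, AKT1S1 at 25.6 and MTOR at 19.9. RPTOR and RICTOR, the subunits that tell the complexes apart, were lower, at 10.5 and 9.39 CPM per kb. TSC2 and TSC1 stood at 9.17 and 6.70 CPM per kb, and DEPTOR was lowest at 3.07. Each of the 9 genes differed between untreated lines (edgeR quasi-likelihood F-test over 33 libraries, adjusted p from 6.39e-29 for DEPTOR to 4.597e-09 for TSC2), as did 99.4% of all genes tested.

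DEPTOR varied most between lines. Its untreated level was 60.1 ± 2.41 CPM in KASUMI1 and 59.95 ± 5.57 in F36P (SD, n = 3 each), libraries of which overlapped. MOLM13 (18.0 ± 4.15 CPM) and NOMO1 (14.8 ± 0.487) came next, and the lowest levels were 2.58 ± 0.438 CPM in MONOMAC6 and 2.12 ± 0.326 in NB4, which also overlapped. The span from KASUMI1 to NB4 was 28.4-fold. RPTOR spanned 4.99-fold, from 157 ± 4.34 CPM in KASUMI1 to 31.4 ± 2.16 in THP1. The spans of the other genes were smaller: RHEB 3.61-fold (THP1 highest, NOMO1 lowest), MLST8 3.27-fold (HL60, KASUMI1), MTOR 2.498-fold (KASUMI1, NOMO1), RICTOR 2.38-fold (NOMO1, F36P), AKT1S1 2.24-fold (F36P, HL60), TSC1 1.96-fold (KASUMI1, THP1) and TSC2 1.74-fold (HL60, MOLM13). KASUMI1 therefore held the highest mean level of MTOR, RPTOR, DEPTOR and TSC1 and the lowest of MLST8. Its libraries overlapped those of F36P for DEPTOR, HL60 for TSC1 and THP1 for MLST8. In the order of lines, libraries of neighbours overlapped in 4 of 10 neighbouring pairs for RPTOR, 5 for RHEB, 6 each for MTOR, DEPTOR and AKT1S1, 7 each for TSC1 and TSC2, 8 for MLST8 and 9 for RICTOR and these neighbours did not differ beyond their spread.

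RICTOR fell into a broad upper range in 6 lines (89.6 to 107 CPM; NOMO1, THP1, OCIAML3, HL60, MV411, NB4) and a lower one in the other lines (45.02 to 52.1 CPM). Per kb, RPTOR was 4.78 ± 1.29 times RICTOR in KASUMI1, 3.53 ± 1.85 times in F36P and 3.02 ± 0.367 times in MONOMAC6 (mean of the library ratios ± SD, n = 3 each). The ratio was near 1 in OCIAML3 (1.14 ± 0.278) and lowest in THP1, at 0.437 ± 0.0510. RICTOR also stood above RPTOR per kb in MV411 (ratio 0.813 ± 0.107) and NOMO1 (0.851 ± 0.133).

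The genes lie apart in the genome (GRCh38): MTOR on chromosome 1 (11106535 to 11262556, minus strand), RPTOR on chromosome 17 (80544819 to 80966371, plus), RICTOR on chromosome 5 (38937920 to 39074402, minus), AKT1S1 on chromosome 19 (49869033 to 49878459, minus), TSC1 on chromosome 9 (132891348 to 132946874, minus) and RHEB on chromosome 7 (151466012 to 151520120, minus). TSC2 (2047967 to 2089491, plus) and MLST8 (2204248 to 2209453, plus) share chromosome 16. On the opposite strand, TSC2 overlaps PKD1, TSC1 overlaps GFI1B, RICTOR overlaps OSMR and MLST8 overlaps BRICD5. RHEBP2, a processed copy of RHEB, drew 67 reads in all libraries together.

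The 250 bases before the RefSeq start (GRCh38.p14) are given for MTOR (chr1:11262552-11262801, minus strand), for RPTOR (chr17:80544588-80544837, plus) and RICTOR (chr5:39074400-39074649, minus), the subunits that tell the complexes apart, and for TSC2 (chr16:2047735-2047984, plus), which rose in 5 lines. They read 5′ to 3′ along the gene. Capitals mark matches on either strand to CACGTG (E-box), GGGCGG (GC box), CCAAT, TGACGTCA (CRE) and GGAAGTG (ETS), with overlapping matches counted.
MTOR: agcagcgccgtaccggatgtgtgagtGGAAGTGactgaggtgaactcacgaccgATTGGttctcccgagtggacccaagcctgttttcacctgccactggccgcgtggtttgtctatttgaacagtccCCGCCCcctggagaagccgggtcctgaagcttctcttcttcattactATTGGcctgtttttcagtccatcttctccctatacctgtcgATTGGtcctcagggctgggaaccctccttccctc
RPTOR: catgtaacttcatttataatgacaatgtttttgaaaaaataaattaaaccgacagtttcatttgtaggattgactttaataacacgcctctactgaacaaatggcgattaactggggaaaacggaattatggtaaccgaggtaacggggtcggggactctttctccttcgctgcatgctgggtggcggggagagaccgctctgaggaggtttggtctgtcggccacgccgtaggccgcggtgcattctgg
RICTOR: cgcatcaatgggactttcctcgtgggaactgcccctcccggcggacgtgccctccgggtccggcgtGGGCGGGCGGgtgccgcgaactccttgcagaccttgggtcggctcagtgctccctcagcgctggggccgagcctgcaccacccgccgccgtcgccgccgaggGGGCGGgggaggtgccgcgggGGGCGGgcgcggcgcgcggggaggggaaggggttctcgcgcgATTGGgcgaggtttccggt
TSC2: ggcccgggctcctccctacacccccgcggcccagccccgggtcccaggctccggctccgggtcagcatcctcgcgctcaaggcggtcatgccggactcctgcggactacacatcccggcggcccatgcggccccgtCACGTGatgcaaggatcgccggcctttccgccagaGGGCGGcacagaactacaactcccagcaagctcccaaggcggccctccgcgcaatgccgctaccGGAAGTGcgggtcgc
MTOR held 3 CCAAT matches, 1 GC box and 1 ETS match in 55.6% GC. RICTOR held 4 GC boxes and 1 CCAAT match in 76.0% GC. TSC2 held the E-box once, beside 1 GC box and 1 ETS match, in 71.6% GC. A second RefSeq start of TSC2, whose window lies mostly inside the annotated gene and is not printed, held no E-box, 1 GC box and 1 ETS match in 77.2% GC. RPTOR held no match to any of the motifs and was lowest in GC, at 47.2%. Over 35116 promoters of the same length, 42.6% held GGGCGG, 32.0% CCAAT, 9.28% GGAAGTG, 6.34% CACGTG and 1.65% TGACGTCA, and the median GC was 58.0%. A match is a description of the letters and not of a bound factor.

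Etoposide lowered more of these genes than it raised. Over 10 lines, 33 of 90 pairs of gene and line fell and 10 rose (edgeR quasi-likelihood test within each line, adjusted p under 0.05), and 47 did not pass. Among all pairs of a tested gene and a line, 24.4% fell, 27.7% rose and 52.1% changed. In 7 pairs the change was also over 2-fold, all of them downward, against 15% of all pairs. With library size alone in place of TMM scaling, 24 pairs fell and 18 rose. The median log2 change of all genes then shifted by up to 0.249, in F36P. In bulk RNA, fewer cells that express a gene and less RNA per cell cannot be told apart.

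NB4, F36P and MV411 had the most members that passed. In NB4 7 members fell and 1 rose, with 1 change over 2-fold, where 31% of genes rose and 28.7% fell, 59.8% changed in all and 18% by over 2-fold. In F36P 5 fell and 1 rose, 2 of them over 2-fold, where 35% of genes rose and 25% fell, 59.9% changed in all and 30.9% by over 2-fold. MV411 had 4 that fell and 2 that rose, 1 over 2-fold (33.5% of genes rose and 30.4% fell, 63.9% changed in all and 15.1% by over 2-fold). In KASUMI1 5 fell and none rose, 2 over 2-fold (31.5% of genes rose and 28.6% fell, 60.1% changed in all and 21.1% by over 2-fold).

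The other lines had 4 or fewer, and of these only MONOMAC6 had a change over 2-fold, which was DEPTOR. In MONOMAC6 3 fell and 1 rose (31.8% of genes rose and 30.5% fell, 62.3% changed in all and 13% by over 2-fold). NOMO1 also had 3 and 1 (28.8% of genes rose and 23.9% fell, 52.7% changed in all and 12.8% by over 2-fold), MOLM13 had 2 and 2 (28.1% of genes rose and 28.1% fell, 56.2% changed in all and 12% by over 2-fold), and HL60 had 3 that fell (17.5% of genes rose and 15% fell, 32.5% changed in all and 6.58% by over 2-fold). In OCIAML3 1 fell and 1 rose (22.4% of genes rose and 17.7% fell, 40.1% changed in all and 8.54% by over 2-fold). THP1 had a single member pass, MLST8, which rose (16.1% of genes rose and 16% fell, 32.1% changed in all and 9.83% by over 2-fold).

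With 1 library left out a fit has fewer replicates, so a lost call does not by itself point to that library. OCIAML2 aside, the count of members that passed then moved most, relative to its size, in 5 lines. In HL60 it was 0 without untreated replicate 2 and 1 without any other single library except etoposide replicate 2. In MOLM13 it was 7 without etoposide replicate 1. In NB4 it was 5 without untreated replicate 1 or etoposide replicate 2 and 4 without etoposide replicate 3. In OCIAML3 it was 4 without etoposide replicate 3 and 1 without etoposide replicate 2 or any untreated replicate. In THP1 it was 0 without untreated replicate 1 or 2 and 2 without etoposide replicate 2.

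MTOR itself changed in few lines. In KASUMI1 its level was 262, 261 and 262 CPM untreated and 152, 116 and 144 CPM with etoposide. In F36P it was 249.3, 229 and 244 CPM untreated and 159, 149 and 175 CPM with etoposide. The groups lay apart in both lines, and the log2 changes were -0.93 ± 0.102 (SE; adjusted p = 4.22e-05) and -0.58 ± 0.107 (adjusted p = 0.000953). Smaller changes passed in NB4 (-0.21, adjusted p = 0.0413) and, upward, in NOMO1 (0.20, adjusted p = 0.0448). Neither call held in every fit with 1 library left out. The NB4 call was lost without untreated replicate 1 or 2 or etoposide replicate 2 or 3 (adjusted p up to 0.226). The NOMO1 call was lost without any one of its libraries (0.0768 to 0.168) and with RLE scaling, DESeq2 or the exact test. These fits had no term for replicate number, by which the NB4 libraries were taken as paired. With that term the NB4 adjusted p was 0.00423 (edgeR quasi-likelihood test, all NB4 libraries). In the other lines values lay between -0.11 (HL60) and 0.12 (THP1).

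MLST8, the small WD-repeat subunit held by both complexes, fell in 8 of 10 lines. In MV411 its level was 73.3, 79.8 and 86.4 CPM untreated and 47.3, 54.5 and 56.1 CPM with etoposide. The treated libraries were all lower, and the log2 change was -0.60 ± 0.0743 (adjusted p = 3.85e-07). KASUMI1 (-0.75 ± 0.144, adjusted p = 0.00144), F36P (-0.68 ± 0.130, adjusted p = 0.00119) and MOLM13 (-0.57 ± 0.101, adjusted p = 0.000840) moved by as much, and NOMO1, OCIAML3, HL60 and NB4 by -0.51 to -0.29. The call was lost in HL60 without untreated replicate 2 or etoposide replicate 1 (adjusted p up to 0.0954), and in NB4 without untreated replicate 2 or etoposide replicate 1 or 3 (up to 0.152). With all NB4 libraries the adjusted p was 0.0317, and 0.000901 with a term for replicate number. MONOMAC6 did not pass (-0.14, adjusted p = 0.208). THP1 went the other way: 53.3, 56.8 and 58.3 CPM untreated became 66.04, 102 and 65.1 CPM, a log2 rise of 0.47 ± 0.157 (adjusted p = 0.0295). Replicate 2 was far above the other treated THP1 libraries, and without it the rise was 0.26 and kept its call, which was lost without untreated replicate 1 or 2 (adjusted p up to 0.0900).

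RPTOR, the scaffold that brings substrates to mTORC1, fell in 6 lines and rose in none. In F36P it went from 109, 96.2 and 95.2 CPM to 38.6, 42.7 and 48.9 CPM, and in KASUMI1 from 152, 158 and 159 CPM to 71.0, 74.2 and 78.6 CPM. The groups lay far apart in both lines, with log2 changes of -1.21 ± 0.129 (adjusted p = 3.37e-05) and -1.07 ± 0.0763 (adjusted p = 3.11e-06). Falls of -0.45 ± 0.103 in NB4, -0.42 ± 0.0918 in NOMO1, -0.37 ± 0.0625 in MONOMAC6 and -0.30 ± 0.101 in HL60 also passed. The HL60 call was lost without any one library other than etoposide replicate 2 (adjusted p up to 0.117). MOLM13, MV411, OCIAML3 and THP1 lay between -0.08 and 0.09.

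AKT1S1, a substrate and inhibitor of mTORC1, followed RPTOR in F36P and KASUMI1. F36P went from 78.6, 73.7 and 66.5 CPM to 39.5, 47.9 and 48.5 CPM (log2 change -0.69 ± 0.129, adjusted p = 0.00108), and KASUMI1 moved by -0.76 ± 0.135 (adjusted p = 0.000880). The groups did not overlap in either line. NB4 fell by 0.30 on the log2 scale (adjusted p = 0.0117). In the remaining 7 lines, values lay between -0.21 and 0.17 and did not pass.

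RICTOR, which defines mTORC2, was the hardest of the 9 genes to read because its libraries disagreed. In F36P it was 28.2, 38.3 and 78.3 CPM untreated and 53.4, 41.8 and 41.8 CPM with etoposide. The treated libraries lay inside the untreated range, and the log2 change was -0.08 ± 0.311 (adjusted p = 0.840). Without untreated replicate 3 the sign turned and the change was 0.35 (adjusted p = 0.0494). The SD within groups of log2 CPM was 0.307, larger than for 97.5% of the 6697 genes with a mean of 30 CPM or more, whose median was 0.127, although each library held 500 or more RICTOR reads. RICTOR fell in MV411 from 103, 98.0 and 88.6 CPM to 89.0, 78.7 and 77.8 CPM (-0.24 ± 0.0689, adjusted p = 0.00463), with groups that overlapped narrowly. It also fell in HL60 (-0.33, adjusted p = 0.0304) and NB4 (-0.33, adjusted p = 0.0180), where the call was lost without most single libraries: in HL60 all but etoposide replicate 1 (adjusted p up to 0.115), and in NB4 untreated replicate 1 or 3 or etoposide replicate 2 or 3 (up to 0.0816). With a term for replicate number and all NB4 libraries, the NB4 adjusted p was 0.000567.

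The spread of RICTOR was shared with other members. Over 66 libraries, deviations of log2 CPM from the group mean ran against each other in RICTOR and MLST8 (r = -0.72), AKT1S1 (r = -0.66), RPTOR (r = -0.64) and TSC2 (r = -0.57), and together in RICTOR and TSC1 (r = 0.72). These points share libraries, and the values are given as a description. MTOR (r = 0.08), DEPTOR (r = 0.18) and RHEB (r = -0.31) followed RICTOR less closely. The GC content of the canonical transcripts was 36.5% for RICTOR, 45.7% for DEPTOR, 48.0% for RHEB, 48.3% for TSC1, 52.3% for MTOR and 60.05% to 64.1% for RPTOR, TSC2, MLST8 and AKT1S1. RHEB and TSC1, at similar GC, had r with RICTOR of -0.31 and 0.72, and the cause of the shared deviations was not tested. A correction for GC, chosen after seeing these deviations, took off from each library a smooth of its deviation from the mean of its cell line. It lowered the median SE of the RICTOR change from 0.161 to 0.0879 and that of MLST8 from 0.106 to 0.0645. The calls then were 12 up and 41 down, and 42 of the 43 calls remained, RICTOR in MV411 being lost (-0.04, adjusted p = 0.492). Of 11 calls gained, 3 were of AKT1S1, which fell in MONOMAC6, MV411 and OCIAML3. In F36P the falls of AKT1S1 and MLST8 deepened to -1.07 and -1.04, and in NB4 that of RICTOR shrank to -0.21. Whether the GC trend is technical was not tested. When only deviations from the group mean were taken off, which keeps a trend shared by treated libraries, all 43 calls remained and 10 were gained. In NB4, the fits with either form of the correction also had a term for replicate number, so the effects of these changes are not separated there.

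The ratio of RPTOR to RICTOR asks whether the balance between the complexes shifted at the level of mRNA. It dropped most in KASUMI1 (log2 change -1.38) and F36P (-1.26), followed by NOMO1 (-0.46) and MONOMAC6 (-0.45), and was higher in THP1 (0.33), MOLM13 (0.25), MV411 (0.15) and HL60 (0.04). The mean over 10 lines was -0.30 ± 0.598 (SD, n = 10), negative in 6 of 10, and did not pass an exact two-sided sign-flip permutation test (p = 0.170). It was -0.17 without replicate 1, -0.18 without KASUMI1 and -0.19 without F36P. With the GC correction the mean was -0.44 ± 0.570, 9 of 10 lines were negative and the same exact permutation test gave p = 0.00977, so the call depended on that correction.

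DEPTOR, an inhibitor bound to mTOR in both complexes and encoded on chromosome 8 (119873717 to 120050918, plus strand), gave the largest changes of the 9 genes. In F36P, 65.6, 65.4 and 59.1 CPM became 14.2, 14.5 and 13.3 CPM, a log2 change of -2.18 ± 0.122 (adjusted p = 1.49e-06). In KASUMI1, 62.2, 60.8 and 56.8 CPM became 16.7, 16.3 and 15.3 CPM (-1.89 ± 0.0890, adjusted p = 3.99e-07). Treated libraries of these 2 lines were close to each other and far below every untreated one. MONOMAC6 fell from 3.11, 2.74 and 2.21 CPM to 0.446, 0.604 and 0.655 CPM (-2.23 ± 0.237, adjusted p = 7.00e-06), which rests on 10 to 15 reads per treated library. NB4, with 13 to 29 reads per treated library, fell by 1.39 on the log2 scale (adjusted p = 0.000739). MV411 (-1.01 ± 0.152, adjusted p = 5.32e-06) and NOMO1 (-0.73 ± 0.118, adjusted p = 0.000271) fell as well, and all 6 falls held when any one library was left out, although the MV411 change was then under 2-fold without untreated replicate 1 or etoposide replicate 3. Only in MOLM13 did DEPTOR rise, from 21.7, 16.2 and 13.99 CPM to 29.8, 22.5 and 24.0 CPM (0.55 ± 0.160, adjusted p = 0.0140). The lowest treated library there was only just above the highest untreated one, and the call was lost without untreated replicate 2 or 3 (adjusted p up to 0.0633). HL60, OCIAML3 and THP1 did not pass (-0.24, -0.22 and -0.37).

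The mRNA levels of TSC2 and RHEB moved in opposite directions in 4 lines. TSC2, the GTPase-activating subunit that turns RHEB off, rose in MOLM13, MONOMAC6, MV411, NB4 and OCIAML3, and RHEB fell in the first 4 of these. In MONOMAC6, TSC2 went from 59.0, 66.5 and 64.9 CPM to 78.7, 85.1 and 85.6 CPM (log2 change 0.39 ± 0.0613, adjusted p = 0.000170). RHEB in the same libraries went from 90.1, 92.2 and 87.7 CPM to 79.9, 67.0 and 74.8 CPM (-0.28 ± 0.0651, adjusted p = 0.00247). The groups were apart for both genes.

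RHEB fell most in NB4, from 87.9, 83.8 and 83.1 CPM to 60.4, 55.7 and 58.7 CPM (-0.54 ± 0.0853, adjusted p = 6.03e-05), and in MOLM13 (-0.49 ± 0.0757, adjusted p = 0.000370) and MV411 (-0.34 ± 0.0728, adjusted p = 0.000377). TSC2 rose by 0.40 ± 0.0702 in MV411 (adjusted p = 3.33e-05), 0.34 ± 0.0776 in MOLM13 (adjusted p = 0.00367), 0.29 ± 0.0933 in NB4 (adjusted p = 0.0155) and 0.28 ± 0.0757 in OCIAML3 (adjusted p = 0.0186). The NB4 and OCIAML3 calls of TSC2 were each lost without 4 of 6 single libraries (untreated replicate 1 or 3 and etoposide replicate 2 or 3 in NB4, any untreated replicate or etoposide replicate 2 in OCIAML3; adjusted p up to 0.118). With a term for replicate number and all NB4 libraries, the NB4 adjusted p was 0.00167. With the GC correction the TSC2 rises kept their calls but shrank to 0.20 in MV411, 0.20 in MOLM13 and 0.17 in NB4. TSC1, which stabilises TSC2, rose in F36P from 50.3, 58.0 and 60.6 CPM to 77.0, 73.6 and 79.5 CPM (0.45 ± 0.117, adjusted p = 0.00762) and in MV411 from 48.9, 47.9 and 48.9 CPM to 64.1, 63.6 and 60.8 CPM (0.37 ± 0.0624, adjusted p = 2.29e-05). It fell in none, with the other lines between -0.22 and 0.22. By these calls MV411 was the line in which both TSC genes rose and RHEB fell. MONOMAC6 came close, with TSC1 at 0.13 (adjusted p = 0.0524) and its groups apart. There TSC1 passed with library size alone, a mean of at least 5 CPM, the replicate block and both GC corrections.

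Taking the 10 lines as replicates, 4 members fell on average and 1 rose (limma on 1 log2 change per line, adjusted p under 0.05), where 13.6% of 19974 genes fell, 21.6% rose, 35.2% changed and the median change was 0.12. DEPTOR fell by 0.93 ± 0.253 (SE, adjusted p = 0.0140), MLST8 by 0.38 ± 0.102 (adjusted p = 0.0139), RPTOR by 0.36 ± 0.125 (adjusted p = 0.0415) and RHEB by 0.21 ± 0.0691 (adjusted p = 0.0353) on the log2 scale. TSC2 rose by 0.22 ± 0.0652 (adjusted p = 0.0194). MTOR (-0.12, adjusted p = 0.370), RICTOR (-0.06, adjusted p = 0.536), AKT1S1 (-0.20, adjusted p = 0.111) and TSC1 (0.12, adjusted p = 0.234) did not pass. AKT1S1 passed under 1 of 21 alternatives, the GC correction (-0.37, adjusted p = 0.0251). DEPTOR and MLST8 passed under all 21 alternatives tried (adjusted p up to 0.0470 and 0.0395). TSC2 passed under 18 and was lost with the GC correction (0.07, adjusted p = 0.463), without OCIAML3 and without replicate 2, while RPTOR passed under 8 of 21 and RHEB under 10. For RPTOR the call was lost without F36P, HL60, KASUMI1, MONOMAC6, NB4, NOMO1 or OCIAML3 (adjusted p up to 0.0914), with RLE scaling, library size alone or no filter, and in an exact sign-flip permutation test, and for RHEB without F36P, KASUMI1, MOLM13, MONOMAC6, MV411, NB4 or OCIAML3 (up to 0.0815), without replicate 2 (0.0999) and with library size alone (0.187), no filter (0.0658) or RLE scaling (0.0592).

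**Figure D1:**
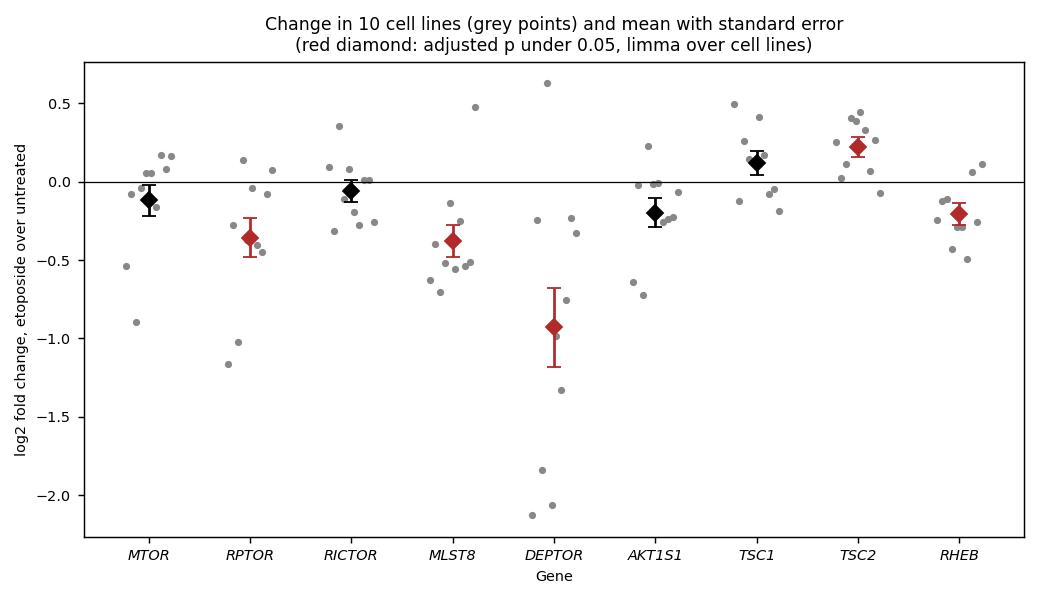
Log2 fold change of each gene in the 10 cell lines (grey points) with the mean over lines and its standard error (diamonds, red where the adjusted p was under 0.05). The means of 5 genes are red, and the points of DEPTOR run from above 0 in MOLM13 to below -2 in F36P and MONOMAC6.

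The responses themselves differed between lines. All members other than RICTOR passed the test of the 9 interaction terms of line and treatment (edgeR quasi-likelihood F-test over 60 libraries), as did 74.5% of genes. The adjusted p was 5.16e-16 for DEPTOR, 1.90e-12 for MTOR, 1.65e-11 for RPTOR and 0.0133 for TSC2, which was lost without replicate 1 or 3 (up to 0.263), and 0.639 for RICTOR, which passed under 1 of 10 alternatives, with no filter on low counts. On one scale over these 60 libraries, the span of RPTOR between the highest and the lowest line narrowed from 5.00-fold untreated to 2.58-fold with etoposide, and that of MTOR from 2.48-fold to 1.80-fold. The span of DEPTOR widened from 28.6-fold to 49.9-fold, with MOLM13 highest (28.0 CPM) and MONOMAC6 lowest (0.561 CPM) after treatment. These spans are descriptions and were not tested.

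In OCIAML2 no member passed. All 9 adjusted p were 0.998, with log2 changes between -0.16 (MLST8) and 0.05 (RICTOR). Of 13604 genes tested in this line 3 passed, which is 0.0221%, and 456 had an unadjusted p under 0.05. CDKN1A was one of the 3 (0.73, adjusted p = 0.000289). Without etoposide replicate 3, 1 member passed.

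Other genes of the pathway were counted in lists, 84 genes in all, to be read against the 21.6% of all genes that rose and the 13.6% that fell on average over lines. Among genes whose products restrain mTORC1, 3 of 22 tested rose and 3 fell on average over 10 lines (limma, adjusted p under 0.05), at or below those shares of all genes. SESN2, a p53-induced leucine sensor, rose in 8 of 10 lines, with a mean log2 change of 1.23 ± 0.265 (adjusted p = 0.00406) and 2.76 in THP1, while HL60 and KASUMI1 did not pass (-0.12 and -0.11). SESN1 and PRKAA1 also rose. KICS2, a subunit of the KICSTOR scaffold, fell in 8 lines (mean -0.85 ± 0.157, adjusted p = 0.00177), and NPRL2 and NPRL3 of GATOR1 fell. DDIT4, a stress-induced activator of the TSC complex, rose in 5 lines and fell in MONOMAC6, and its mean did not pass (0.67 ± 0.295, adjusted p = 0.0935).

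In the amino acid branch, 5 of 20 rose and 4 fell, near the 21.6% and 13.6% of all genes. SEH1L of GATOR2 fell in 10 of 10 lines (mean -0.84 ± 0.0749, adjusted p = 7.28e-05). The GTPase RRAGD rose in 7 lines and fell in OCIAML3 (mean 0.52 ± 0.172, adjusted p = 0.0326), and folliculin (FLCN), the GTPase-activating protein of RRAGC and RRAGD, rose in 7 (0.48 ± 0.102, adjusted p = 0.00382). LAMTOR3, RRAGC and SLC38A9 rose, and LAMTOR4, LAMTOR5 and SEC13 fell.

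Among growth factor genes, none of 13 rose and 4 fell, where 21.6% of all genes rose and 13.6% fell: IGF1R in 10 of 10 lines (mean -0.95 ± 0.121, adjusted p = 0.000224), AKT2 in 6 lines (-0.34 ± 0.0752, adjusted p = 0.00498), PIK3CB in 6 lines (-0.44 ± 0.131, adjusted p = 0.0198) and PIK3R1. Line by line, 51 of 127 pairs of these genes and lines fell and 12 rose, where 24.4% of all pairs fell and 27.7% rose. The other lists gave 55 that fell and 50 that rose of 203 for restraint, 52 and 48 of 199 for the amino acid branch, 64 and 56 of 199 for substrates and targets, and 18 and 7 of 57 for mTORC2 subunits and assembly factors. None of the 6 other mTORC2 subunits and assembly factors passed on average. MAPKAP1 (SIN1) gave -0.32 ± 0.150 (adjusted p = 0.108) and -1.64 in F36P. Of this list, TTI1 gave -0.11 (adjusted p = 0.278) and TTI2 0.09 (adjusted p = 0.284).

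Of 20 substrates and targets, 5 rose and 5 fell, where 21.6% of all genes rose and 13.6% fell. The kinase SGK1, phosphorylated by mTORC2, rose in 9 lines (mean 1.53 ± 0.257, adjusted p = 0.00100), and TFEB, the lysosomal transcription factor held in the cytoplasm by mTORC1, rose in 9 (0.99 ± 0.154, adjusted p = 0.000656). HIF1A, TFE3 and ULK1 rose as well. The cap-binding protein EIF4E (-0.78 ± 0.0750, adjusted p = 8.52e-05), LARP1, which binds the 5′ ends of ribosomal protein messages (-0.70 ± 0.0953, adjusted p = 0.000302), and the lipogenic factor SREBF1 (-0.74 ± 0.0837, adjusted p = 0.000135) each fell in 10 of 10 lines, and EIF4B and RPS6KB1 fell on average.

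Genes with the most similar untreated profiles were ranked by Pearson r of line means over 11 lines among 12110 protein-coding genes, as a description. For RICTOR they were ZNF131 (r = 0.95) and TTC33 (r = 0.93), both on chromosome 5 (43065176 to 43192021 and 40512333 to 40755963), then SPATS2L (r = 0.91). For MTOR they were TRIM37 (r = 0.98), NDRG3 (r = 0.92) and NCDN (r = 0.92), and for RPTOR UBR4, CCDC88C and HEXIM1 (r = 0.92 each). For RHEB they were CHCHD3 (r = 0.89) and POLR2J (r = 0.87), both on its own chromosome 7, and BRICD5 (r = 0.87) on chromosome 16. Of the 27 genes ranked for the 9 members, 7 lay on the chromosome of their member, against 2 of 27 in the ranking by log2 change. The share over all genes was not computed, so neither count is read as a result. Over the 10 log2 changes, RPTOR ran closest to VWA8 (r = 0.98), PPARGC1B and SCFD2 (r = 0.97 each), MTOR to SLC52A2 (r = 0.97), BIRC6 (r = 0.97) and ANKRD17 (r = 0.95), and DEPTOR to PACC1, MRPL19 and MICOS13 (r = 0.94 each).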

How the data were processed

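RNA of 66 libraries (11 cell lines, untreated and etoposide, 3 each) was sequenced single-end after TruSeq stranded preparation. The authors checked reads with FastQC 0.11.5, aligned them to GRCh38.p7 with STAR 2.5.3a and gencode 25, and deposited 1 file per library with the raw read count of each gene, not normalized; their own tests used edgeR 3.20.1. Which strand column was deposited is not given in the sources used here, and the counts of overlapping genes may depend on it. The 45 copies of pseudoautosomal genes, all at 0 reads, were left out. Gene names came from gencode 44.

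The members and lists were chosen with earlier results of these data known. Groups came from the sample labels. The study's methods describe its experiments in general as having 3 biological replicates, and each library pooled wells of 1 line; p-values measure the spread between these libraries. Within each line, edgeR 4.0.16 in R 4.3.3 was used (filterByExpr with a minimum count of 10 and total of 15, TMM scaling, quasi-likelihood test, Benjamini-Hochberg over all genes, adjusted p under 0.05), and a fold over 2 was a second threshold. The mean over lines used limma 3.58.1 on 1 log2 change per line (prior count 2), without OCIAML2. The interaction and untreated levels used edgeR F-tests over 60 and 33 libraries. The RPTOR to RICTOR ratio used an exact two-sided sign-flip permutation test of 1024 flips. Fits were tested on simulated data.

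Alternatives were RLE scaling, library size alone, no filter on low counts, a mean of at least 5 CPM, DESeq2 1.42.0, the edgeR exact test, one fit of all lines, a replicate block, a prior count of 0.5 and leaving out each library or line. A correction for transcript GC was added after seeing the data, and in NB4 it was fitted together with the replicate block. Replicate numbers were taken to pair the samples only in NB4, where same-numbered libraries had correlations of 0.152 to 0.265. All such correlations were also positive in HL60, MOLM13, MONOMAC6, MV411 and OCIAML2. The choice therefore rests on a cutoff for the lowest correlation of a line, which NB4 alone passed. The lowest such correlation was 0.0892 in MOLM13, 0.0815 in OCIAML2 and below these in the other lines. In NB4 the block changed no member call. The NB4 values, and all fits that left out a library, were without the block unless stated. Named pathway genes were, per list, the 3 with the largest mean change among those tested in all 10 lines and any called one way in all 10; other called genes are named as members of counts. Like genes were the 3 with the highest Pearson r per member. Some marker and overlap results are not reported here.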

Additional observations from a re-analysis of the deposited data

Results flagged for a closer look

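The log2 change of MLST8 in THP1, 0.4672, lay apart from the other 9 lines, all of them negative. Its gap to the next line over the full range (Dixon's Q) was 0.498, just past the limit of 0.466. Etoposide replicate 2 in THP1, at 102 CPM, was far above the other treated libraries (66.04 and 65.1 CPM). Whether the gap passes without that library was not tested. The highest and the lowest of 10 lines were looked at for each of 9 genes, and chance sets apart about 1 in 20 such groups.

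The etoposide response differed between 10 lines for 8 members by the interaction test (edgeR quasi-likelihood F-test), with an adjusted p of 5.162e-16 for DEPTOR, 1.903e-12 for MTOR, 1.647e-11 for RPTOR, 8.676e-06 for AKT1S1, 1.074e-05 for MLST8, 2.522e-05 for TSC1, 0.0004117 for RHEB and 0.01328 for TSC2. Among all genes 74.5% passed. Concentration differed between lines and cannot be told apart from line here.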

How the results depend on the processing

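The tests of untreated levels and of the interaction passed the same number of members, within 1.5 times, under every alternative run. Counts of members that changed within a line moved as follows, and the cause was not tested. With library size alone they were 0 in HL60 (3 with TMM), 7 in MONOMAC6 (4) and 4 in NB4 (8), and counts over 2-fold were 1 in F36P (2), 1 in KASUMI1 (2) and 0 in MV411 (1). With a mean of at least 5 CPM, which drops DEPTOR in some lines (86 of 90 pairs are left), NB4 had 4, and counts over 2-fold were 1 in KASUMI1 and 0 in MONOMAC6, MV411 and NB4. In one fit of all lines HL60 had 1, NB4 had 4 and MV411 had 0 over 2-fold. With the GC correction, MONOMAC6 had 8, OCIAML3 4 and THP1 2, counts over 2-fold were 4 in F36P and 0 in MV411, and OCIAML3 had 41 pathway genes (27 without it); the correction within groups gave OCIAML3 4 members and 43 pathway genes and THP1 2 members. The GC correction took the mean change of the RPTOR to RICTOR ratio to -0.44 (exact permutation p = 0.00977). In OCIAML2, 1 pathway gene passed in place of 0 with no filter, DESeq2, the exact test, the replicate block and both GC corrections.

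The members changed on average over lines were 5, and 3 with RLE scaling, library size alone, no filter, or without F36P, KASUMI1, MONOMAC6 or NB4, and 2 without OCIAML3; without 1 replicate number they were 3 to 4. Without single libraries, member counts ranged over 0 to 2 in HL60, 3 to 7 in MOLM13, 4 to 7 in NB4, 0 to 1 in OCIAML2, 1 to 4 in OCIAML3 and 0 to 2 in THP1, the count over 2-fold over 0 to 1 in MV411, and pathway genes over 0 to 1 in OCIAML2 and 23 to 49 in THP1. The RICTOR change in F36P ranged over -0.39 to 0.35 and turned sign without untreated replicate 3. Of the 43 calls, 32 held in all leave-one-out fits.

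The replicate block, in lines where numbers were not taken to pair the samples, gave 6 calls in MONOMAC6 (4 without it), 3 in NOMO1 (4) and 1 in OCIAML3 (2). Every library correlated best with its own number in MV411, NB4 and OCIAML2. In NB4, the line taken as paired, the block changed no member call. Depth limits DEPTOR in MONOMAC6 and NB4, with 10 to 29 reads per treated library.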
